A study of Mus musculus with 9 samples.

Results

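The genes examined here encode proteins that silence the repeats beside centromeres. They were taken from the deposited table by name: the histone methyltransferases Suv39h1, Suv39h2 and Setdb1, the HP1 genes Cbx1, Cbx3 and Cbx5, the corepressor Trim28, the DNA methylation genes Dnmt1 and Uhrf1, and the chromatin remodeller Atrx. All 10 genes were among the 15228 listed genes, and 9 of them had enough reads to be tested. They are set beside Gm10800, a predicted gene with a satellite-like sequence. RNA was sequenced from mouse retinal cells sorted as retinal ganglion cells (RGCs), with 3 libraries in each of 3 groups, all wild type by the labels. Ctrl came from uninjured retinas. The ONC group was taken 3 d after optic nerve crush (ONC), a mechanical injury of RGC axons, with vehicle (PBS in the labels) injected into the eye. TPEN came from crushed retinas at the same time point, into which 100 μM of the zinc chelator TPEN had been injected. The labels name no injection for Ctrl, so the crush and the injection cannot be told apart in ONC/Ctrl. The study used C57BL/6J mice aged 6 to 8 weeks at surgery.

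Pericentromeric heterochromatin in the mouse is built on long arrays of satellite repeats. SUV39H1 and SUV39H2 trimethylate histone H3 at lysine 9, and the HP1 proteins bind this mark and recruit more methyltransferase. TRIM28 brings SETDB1, another H3K9 methyltransferase, to many retroelements. UHRF1 guides DNMT1 to newly copied DNA so that cytosine methylation is kept, and ATRX works with the chaperone DAXX to place histone H3.3 in heterochromatin. Loss of some of these functions is known to raise satellite transcripts in other cells.

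The libraries held 19946993 to 23109754 reads, worked out from the deposited values, so that a gene with 0 reads could still have up to 3 reads (0.130 to 0.150 RPM, counting error only). Markers of rods dominated all libraries despite the sort. The 9 listed rod markers summed to 21108 to 21705 RPKM (reads per unit of exon length and of library depth) in Ctrl, 18327 to 18466 in ONC and 19719 to 19764 in TPEN. The 10 of 11 RGC markers that were listed summed to 367.9 to 377.7, 391.9 to 413.6 and 306.8 to 320.4 RPKM, and Pou4f2 was not listed. RGCs therefore means here the cells sorted as RGCs. The 13 of 14 listed markers of microglia and macrophages summed to 4.71 to 5.67 RPKM in Ctrl, 61.7 to 65.1 in ONC and 27.2 to 28.1 in TPEN. In such bulk samples, fewer cells of a type and less RNA per cell cannot be told apart. The part of these shifts in the results below was not tested.

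The sequence of Gm10800 resembles those of other annotated genes. Whether its reads can be given to a single locus was not tested. Its GENCODE transcript has 660 bases in 5 exons on chromosome 2 (chr2:98666547-98667301, minus strand, GRCm38) and matched those of 12 other annotated genes, 9 of them listed, over 99.8% of its bases. The identity to those 9 transcripts was 89.2% to 93.4%. The longest stretch free of gaps and inside a single exon of Gm10800, Gm21738, Gm10718 and Gm26870 is printed, with capitals where a copy differs from Gm10800. It lies at chr2:98666738-98666886 on the minus strand for Gm10800, at chr14:19416867-19417015 on the minus strand for Gm21738, and on the plus strand at chr9:3024412-3024560 for Gm10718 and chr9:3014005-3014153 for Gm26870. The Gm26870 stretch is shown on the strand opposite to that gene.
Gm10800: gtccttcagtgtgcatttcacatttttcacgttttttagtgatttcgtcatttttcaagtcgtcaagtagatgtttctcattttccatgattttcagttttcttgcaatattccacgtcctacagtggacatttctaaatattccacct
Gm21738: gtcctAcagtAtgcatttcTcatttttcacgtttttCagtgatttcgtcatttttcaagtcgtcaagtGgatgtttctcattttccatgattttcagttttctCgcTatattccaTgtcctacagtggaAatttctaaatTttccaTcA
Gm10718: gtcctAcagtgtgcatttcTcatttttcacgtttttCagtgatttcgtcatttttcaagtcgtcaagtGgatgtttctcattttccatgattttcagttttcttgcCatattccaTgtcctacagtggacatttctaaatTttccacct
Gm26870: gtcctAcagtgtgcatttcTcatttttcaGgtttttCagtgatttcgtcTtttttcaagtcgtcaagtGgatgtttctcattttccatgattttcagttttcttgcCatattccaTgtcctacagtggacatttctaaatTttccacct
Over these 149 bases, Gm21738 differed from Gm10800 at 12 positions, Gm10718 at 7 and Gm26870 at 9.

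Gm10800 rose after ONC and fell below the uninjured level with TPEN. It was at 71.0, 70.9 and 68.7 RPKM in the Ctrl libraries, at 348.9, 365.4 and 325.2 RPKM in ONC, and at 16.5, 17.3 and 18.1 RPKM in TPEN, and no groups overlapped. The mean was 4.93-fold higher in ONC than in Ctrl, 20.05-fold higher in ONC than in TPEN and 4.06-fold higher in Ctrl than in TPEN. The log2 fold change on the log2(RPKM + 0.1) scale was 2.30 in ONC/Ctrl, -4.32 in TPEN/ONC and -2.02 in TPEN/Ctrl (standard error 0.047, limma adjusted p = 2.4e-09, 3.6e-11 and 1.2e-08). All 10 listed satellite-like genes, near copies of each other, moved the same way in each comparison with an adjusted p under 0.05 and at least a 1.5-fold change. Their rise in ONC over Ctrl ranged from 4.18-fold (Gm11168) to 6.91-fold (Gm10801). Except for Gm10721, with 0 to 2 reads in the TPEN libraries and at least a 20.2-fold lower level there than in ONC against a floor of 3 reads in each library, their means in ONC were 17.1-fold to 30.5-fold those in TPEN. These genes are treated here as one signal because their sequences are alike. Whether reads were shared between them was not tested.

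**Figure D1:**
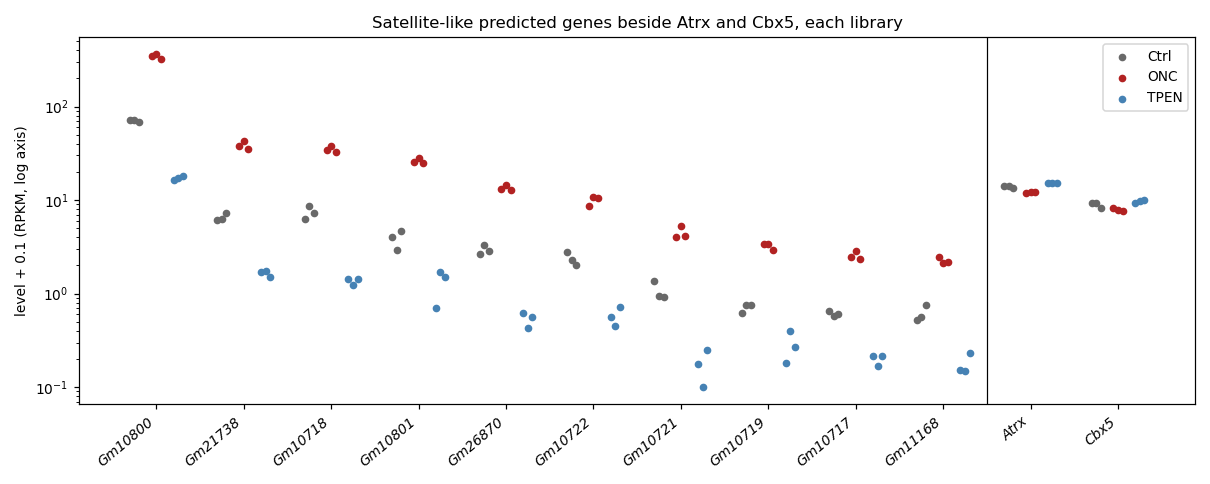
Levels plus 0.1 RPKM on a log axis of the 10 listed satellite-like genes, with Atrx and Cbx5 to the right, one point for each library of Ctrl, ONC and TPEN. In the satellite-like genes the ONC libraries lie highest and the TPEN libraries lowest, while Atrx lies lowest in ONC and highest in TPEN, and Cbx5 lies lower in ONC than in TPEN. Of the members not drawn, Dnmt1 was highest in ONC (means of 24.4, 26.6 and 25.4 RPKM in Ctrl, ONC and TPEN). Trim28 was lower in TPEN than in ONC, and Suv39h2 was lower in both ONC and TPEN than in Ctrl. A relation between members and satellite-like genes was not tested.

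The tested members themselves moved by much less. Of the 9 tested, 0 changed by 1.5-fold with a limma adjusted p under 0.05 in any comparison, where 5.34% of the 13566 genes tested did in ONC/Ctrl, 2.03% in TPEN/ONC and 3.91% in TPEN/Ctrl. The count was also 0 at an unadjusted p under 0.05 and by voom on the recovered reads, since the largest log2 fold change among them was 0.34. At an adjusted p under 0.05 with no limit on the fold change, 2 of the 9 tested members were called in ONC/Ctrl (Atrx lower and Dnmt1 higher), against 18.7% of all genes tested (11.7% higher and 6.97% lower). In TPEN/ONC 2 were called (Atrx and Cbx5, both higher), against 7.39% of all genes (3.24% higher and 4.14% lower), and in TPEN/Ctrl 2 (Atrx higher and Suv39h2 lower), against 13.4% (8.36% higher and 5.01% lower). The median log2 fold change of the 9 members was -0.037, -0.036 and -0.040 in the 3 comparisons, beside 0.017, -0.011 and 0.012 over all genes tested. The groups did not overlap for 4 of the 10 members in each comparison, among them 3, 4 and 3 of the 9 tested, where 36.5%, 28.0% and 31.3% of all genes tested did not overlap. ONC/Ctrl and TPEN/ONC share the ONC libraries. The labels do not say that libraries came from separate mice, so these p-values measure the spread between libraries, which may be technical.

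**Figure D2:**
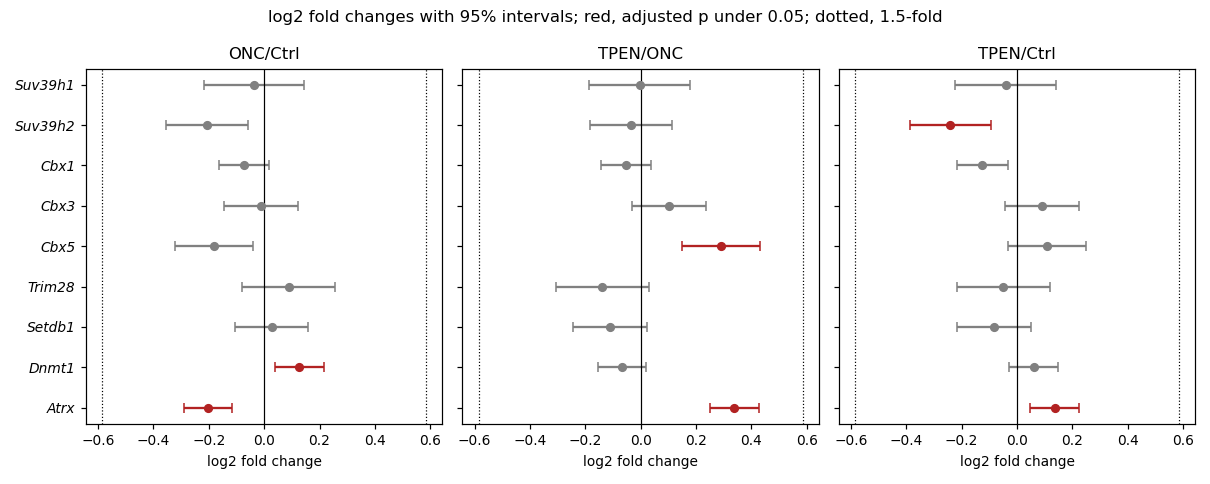
The log2 fold change (x axis) of each tested member in ONC/Ctrl, TPEN/ONC and TPEN/Ctrl, with its 95% interval from limma, red where the adjusted p is under 0.05. No interval reaches the dotted lines at 1.5-fold, and Atrx is the only member in red in all 3 comparisons.

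By level per length, the members spanned a wide range. Cbx1 was highest with a mean of 40.2 RPKM over the 9 libraries (rank 1115 of the listed genes), followed by Dnmt1 at 25.4, Cbx3 at 23.6, Atrx at 13.7, Trim28 at 12.3, Suv39h2 at 10.8, Cbx5 at 8.74, Setdb1 at 8.20, Suv39h1 at 3.42 and Uhrf1 at 0.167 RPKM (rank 14940). Cbx1 lay above Dnmt1 in every library and Cbx3 above Atrx. The ranges over all libraries overlapped between Dnmt1 and Cbx3 and between each pair of neighbours from Atrx to Setdb1. Within libraries, Suv39h2 lay above Cbx5 in 9 of 9, Dnmt1 above Cbx3 in 8, Trim28 above Suv39h2 in 8, Atrx above Trim28 in 6 and Cbx5 above Setdb1 in 6. Setdb1, Suv39h1 and Uhrf1 were set apart from each other without overlap. In an exact permutation test over the 280 ways to split the libraries into 3 groups of 3, the exact p, unadjusted, was 0.0036 for the level of Atrx (the smallest this test can give), 0.0071 for Dnmt1, 0.021 for Cbx5 and 0.029 for Suv39h2, and 0.061 to 0.78 for the other 6 members.

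**Figure D3:**
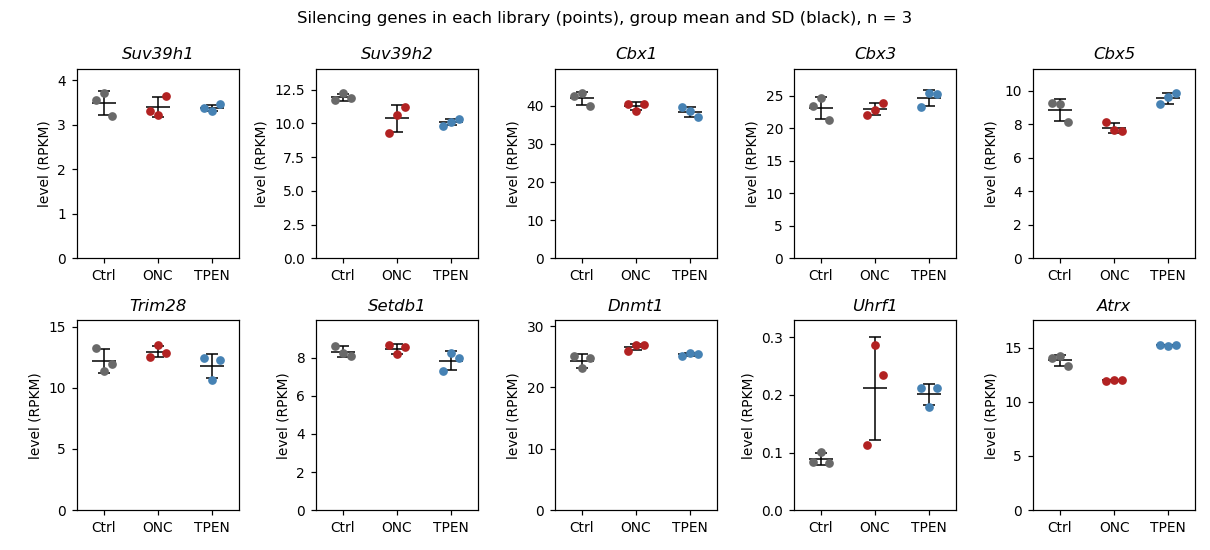
Levels in RPKM (y axis, from 0) of the 10 members in each library of Ctrl, ONC and TPEN, with the group mean and SD in black (n = 3). Atrx is lowest in ONC and highest in TPEN without overlap, Cbx5 is higher in TPEN than in ONC, and the Ctrl libraries of Uhrf1 lie below all others at 7 to 10 reads.

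Atrx, on the X chromosome (chrX:105797615-105929403, minus strand), encodes the remodeller that places H3.3 in heterochromatin. It was lower after ONC and higher with TPEN than in both other groups. Its level was 14.03, 14.20 and 13.26 RPKM in the Ctrl libraries, 11.95, 12.01 and 12.04 RPKM in ONC, and 15.19, 15.19 and 15.22 RPKM in TPEN. No pair of groups overlapped. The group means were 13.8 ± 0.502, 11.998 ± 0.0453 and 15.2 ± 0.0170 RPKM (SD, n = 3). The SDs in ONC and TPEN lay below those that the counting of single reads gives (0.155 and 0.184 RPKM), so they understate the error, and the standard errors rest on the spread that limma shares across genes. After ONC, Atrx fell by 0.20 on the log2 scale (limma adjusted p = 0.0056, standard error 0.039), a decrease of the mean by 13.2%. In TPEN/ONC it rose by 0.34 (limma adjusted p = 0.0010, same standard error), or 26.7%, and in TPEN/Ctrl by 0.14 (limma adjusted p = 0.049), or 9.92%.

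Long exons and a low GC content set the Atrx transcript apart from most genes. It has 21757 exonic bases and a GC content of 39.5%, against a median of 49.6% for listed genes. Of 4 bins of tested genes by GC content, the lowest had a median log2 fold change of 0.026 in TPEN/ONC and the highest -0.059. With the trends on GC content and length removed from each library, an alternative chosen after seeing the data, the log2 fold change of Atrx was -0.13 in ONC/Ctrl (limma adjusted p = 0.021) and 0.20 in TPEN/ONC (limma adjusted p = 0.0066), 1.5 times or more below the values as deposited. The call in TPEN/Ctrl was lost (0.07, limma adjusted p = 0.20), and it was also lost without any 1 of the 9 libraries (limma adjusted p = 0.062 to 0.12). The calls in ONC/Ctrl and TPEN/ONC held in all alternatives tried.

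The HP1 genes encode chromodomain proteins that read trimethylated H3K9. Cbx5 (HP1α, chr15:103191544-103239816, minus strand) was the only one called in the main limma fit, and this was in TPEN/ONC. Its level was 9.26, 9.23 and 8.12 RPKM in Ctrl, 8.13, 7.67 and 7.58 RPKM in ONC, and 9.21, 9.61 and 9.85 RPKM in TPEN. All TPEN libraries lay above all ONC libraries, whereas the lowest Ctrl library lay just under the highest ONC library. Cbx5 rose by 0.29 on the log2 scale in TPEN/ONC (limma adjusted p = 0.023, standard error 0.063), or 22.6%. This call was lost without ONC replicate 2 (limma adjusted p = 0.080), ONC replicate 3 (0.081), TPEN replicate 2 (0.067) or TPEN replicate 3 (0.085). In ONC/Ctrl the log2 fold change was -0.18 (95% interval -0.32 to -0.04, limma adjusted p = 0.075), which passed the threshold without Ctrl replicate 3 (limma adjusted p = 0.018) and after quantile normalization (0.038).

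Cbx1 (HP1β, chr11:96789127-96808640, plus strand), with the highest level of the members, was at 42.0 ± 1.70 RPKM in Ctrl, 39.9 ± 1.08 in ONC and 38.5 ± 1.32 in TPEN (SD, n = 3). Its TPEN libraries lay below all Ctrl libraries, with a log2 fold change of -0.13 in TPEN/Ctrl (95% interval -0.22 to -0.03, limma adjusted p = 0.076), and with an adjusted p of 0.035 without Ctrl replicate 3 in the same limma fit. Cbx3 (HP1γ, chr6:51470360-51483704, plus strand) was at 23.2 ± 1.70, 23.0 ± 0.925 and 24.7 ± 1.18 RPKM, and all pairs of its groups overlapped. The log2 fold change of Cbx3 in TPEN/ONC was 0.10 (95% interval -0.03 to 0.24).

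Within the summed RPKM of the 3 HP1 genes, the share of Cbx5 was lowest in ONC and highest in TPEN. It was 12.3%, 11.9% and 11.7% in Ctrl, 11.5%, 11.1% and 10.5% in ONC, and 12.7%, 13.0% and 13.6% in TPEN. No groups overlapped, and the shares differed between the groups (exact permutation p = 0.0036, 0.014 after adjustment over the 4 shares tested). The share of Cbx1 was 56.8% ± 0.804 in Ctrl, 56.5% ± 0.715 in ONC and 52.9% ± 1.88 in TPEN (SD, n = 3; exact permutation p = 0.021, adjusted p = 0.043). The adjusted p for Cbx1 rose to 0.067 to 0.14 without any 1 of the Ctrl or ONC libraries in the exact permutation test. Cbx3 held 31.3% to 33.9% as group means (exact permutation p = 0.10). Cbx3 is low in GC content (38.7%), Cbx5 and Cbx1 less so (42.6% and 44.8%).

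**Figure D4:**
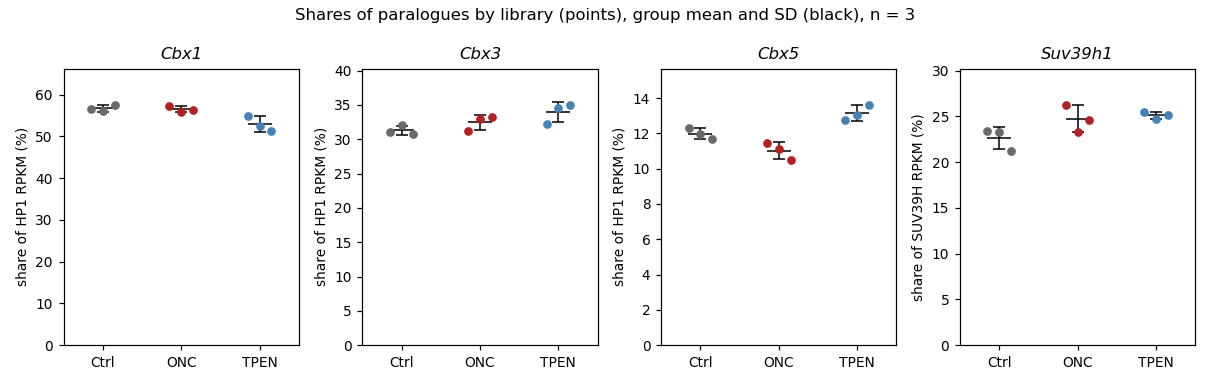
Shares in percent (y axis, from 0) of Cbx1, Cbx3 and Cbx5 in the summed RPKM of the 3 HP1 genes, and of Suv39h1 in the sum with Suv39h2, for each library, with the group mean and SD in black (n = 3). The TPEN libraries hold the highest Cbx5 shares (12.7% to 13.6%) and the lowest Cbx1 shares.

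Of the H3K9 methyltransferase genes Suv39h1, Suv39h2 and Setdb1, only Suv39h2 passed the test. Suv39h2 (chr2:3455815-3475031, minus strand) was at 11.7, 12.2 and 11.9 RPKM in Ctrl, 9.28, 10.6 and 11.2 RPKM in ONC, and 9.84, 10.1 and 10.3 RPKM in TPEN. Every Ctrl library lay above every other library. It fell by 0.24 on the log2 scale in TPEN/Ctrl (standard error 0.066, limma adjusted p = 0.041), or 15.5%, and was at -0.20 in ONC/Ctrl (limma adjusted p = 0.059). The call in TPEN/Ctrl was lost without any 1 of the Ctrl or TPEN libraries or ONC replicate 2 (limma adjusted p = 0.057 to 0.11), whereas that in ONC/Ctrl was gained without ONC replicate 3 (0.028), after median-ratio scaling (0.042) and after quantile normalization (0.031). Dclre1c on the other strand shares 357 of the 4410 exonic bases of Suv39h2, and the sources used here do not say that counting used strand, so reads there are uncertain.

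Suv39h1 (chrX:8061171-8074760, minus strand) was at 3.49 ± 0.266 RPKM in Ctrl, 3.397 ± 0.224 in ONC and 3.39 ± 0.0713 in TPEN (SD, n = 3), with 338 to 452 reads in a library. Its log2 fold change in TPEN/ONC was -0.0033 with a 95% interval of -0.19 to 0.18, which leaves room for changes up to those sizes. It shares 14.6% of its exonic bases with Gm14820. Suv39h1 held 22.6% ± 1.22 of the RPKM summed over both SUV39H genes in Ctrl, 24.7% ± 1.49 in ONC and 25.1% ± 0.388 in TPEN (SD, n = 3; exact permutation p = 0.079).

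Setdb1 and its partner Trim28 passed no test. Setdb1 (chr3:95323525-95357202, minus strand) was at 8.30 ± 0.279, 8.46 ± 0.254 and 7.84 ± 0.506 RPKM in Ctrl, ONC and TPEN (SD, n = 3), and 4.73% of its exonic bases lie in exons of Cers2 or Gm37500. Trim28 (chr7:12999114-13031035, plus strand) was at 13.3, 11.4 and 11.9 RPKM in Ctrl, 12.5, 13.5 and 12.9 RPKM in ONC, and 12.5, 10.6 and 12.3 RPKM in TPEN. The TPEN libraries of Trim28 lay below all ONC libraries, but by little, and its log2 fold change in TPEN/ONC was -0.14 (95% interval -0.31 to 0.03, limma adjusted p = 0.32).

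Of the DNA methylation genes, Dnmt1 was higher in ONC than in Ctrl, and Uhrf1 was too low to test. Dnmt1 (chr9:20907209-20959888, minus strand), the maintenance methyltransferase, was at 25.2, 23.1 and 24.8 RPKM in Ctrl, 26.0, 26.9 and 26.9 RPKM in ONC, and 25.1, 25.6 and 25.4 RPKM in TPEN. All ONC libraries lay above all others. Dnmt1 rose by 0.13 on the log2 scale in ONC/Ctrl (limma adjusted p = 0.0496, standard error 0.039), or 9.19%, and this call just under the threshold was lost after quantile normalization (0.09, limma adjusted p = 0.17), after median-ratio scaling (0.081), with the GC and length trends removed (0.064) and without any 1 library other than Ctrl replicate 1 (0.063 to 0.14). In TPEN/ONC its log2 fold change was -0.07 (95% interval -0.15 to 0.02, limma adjusted p = 0.37).

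Uhrf1 (chr17:56303321-56323486, plus strand), the partner that guides DNMT1 to copied DNA, was near the limit of detection and below the filter of 0.5 RPKM. It had 8, 10 and 7 reads in Ctrl, 11, 28 and 23 in ONC, and 18, 17 and 18 in TPEN. These are 0.0891 ± 0.0109, 0.211 ± 0.0894 and 0.201 ± 0.0185 RPKM (SD, n = 3), and every Ctrl library lay below every other library. In a fit without the filter the log2 fold change was 0.68 in ONC/Ctrl and 0.67 in TPEN/Ctrl (standard error 0.22, limma adjusted p = 0.059 and 0.076). The pseudocount of 0.1 RPKM makes these smaller than the ratios of means, which were 2.37 in ONC/Ctrl and 2.26 in TPEN/Ctrl. Markers of cycling cells, of which 11 of 15 were listed, summed to 37.0 to 37.8 RPKM in Ctrl, 40.7 to 43.4 in ONC and 38.1 to 41.6 in TPEN. Most of that sum came from Pcna and Ccna2 (means of 15.8 and 8.67 RPKM in ONC). Of the list, 2 of 9 tested rose and 0 fell in ONC/Ctrl, where 11.7% of all genes tested rose. In TPEN/ONC 0 of the 9 were called, beside 7.39% of all genes, and in TPEN/Ctrl 0 rose and 1 fell, beside 5.01% lower. Cdk1 and Ccnb1 were not listed. Mki67 and Top2a, which mark dividing cells, were below the filter and not tested. Mki67 had 6 to 16 reads in the Ctrl libraries, 157 to 216 in ONC and 66 to 93 in TPEN. Top2a had 0 to 6, 86 to 123 and 35 to 40 reads. For both genes no groups overlapped, with Ctrl lowest and ONC highest. The part of cycling cells in the levels of Uhrf1 and Dnmt1 was not tested.

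The promoters of Atrx and Cbx5 are printed because these were the members higher in TPEN than in ONC. Each is 300 bases, from 250 before to 50 after the RefSeq start (GRCm38.p6), read on the strand of the gene, and for Cbx5 the most upstream of 2 starts. Capitals mark matches, on either strand, to CCAAT or to the core of the metal response element, TGCGCNC or TGCACNC, which the zinc sensor MTF1 binds. The stretches lie at chrX:105929323-105929622 and chr15:103239803-103240102, both on the minus strand.
Atrx: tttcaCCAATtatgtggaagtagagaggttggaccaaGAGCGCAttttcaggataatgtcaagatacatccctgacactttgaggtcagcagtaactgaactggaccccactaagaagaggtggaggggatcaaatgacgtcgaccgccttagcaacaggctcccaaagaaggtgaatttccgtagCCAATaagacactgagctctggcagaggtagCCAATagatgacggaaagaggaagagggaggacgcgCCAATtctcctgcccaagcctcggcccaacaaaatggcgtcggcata
Cbx5: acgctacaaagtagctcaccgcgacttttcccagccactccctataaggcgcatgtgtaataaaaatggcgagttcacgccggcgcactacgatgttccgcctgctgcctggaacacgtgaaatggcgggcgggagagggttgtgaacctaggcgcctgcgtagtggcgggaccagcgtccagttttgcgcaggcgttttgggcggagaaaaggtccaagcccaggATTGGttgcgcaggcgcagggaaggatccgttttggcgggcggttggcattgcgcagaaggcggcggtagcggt
The Atrx window holds 4 matches to CCAAT and 1 to the metal response element core, and the Cbx5 window 1 to CCAAT and 0 to the core. Over all 32851 promoters of this length, 37.4% held CCAAT and 25.7% the core, so such matches are common. Neither window held the E2F words TTTCCCGC or TTTGGCGC, the NRF1 word or the YY1 word searched, found in 1.56%, 0.971% and 0.633% of promoters. None of the matches in these 2 windows overlapped another.

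Other genes of heterochromatin were examined in 9 lists of partners, opponents and related enzymes. Of their 82 names, some of them synonyms of each other, 73 were listed and 71 tested. In ONC/Ctrl 8 rose and 10 fell (25.4%, beside 18.7% of all genes tested), in TPEN/ONC 2 rose and 5 fell (9.86%, beside 7.39%), and in TPEN/Ctrl 5 rose and 8 fell (18.3%, beside 13.4%). With a 1.5-fold limit 3 of these genes were called in ONC/Ctrl, beside 5.34% of all genes tested. They were Setdb2, Lmna and Asf1b, the last named after its values were seen. In TPEN/ONC 0 were called with that limit, beside 2.03%, and 7 without it. In TPEN/Ctrl 2 were called with it (Setdb2 and Lmna), beside 3.91%.

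The clearest of them among H3K9 methyltransferases was Setdb2, a relative of Setdb1. It rose from 4.34 ± 0.347 RPKM in Ctrl to 6.91 ± 0.331 in ONC and was at 6.96 ± 0.336 in TPEN (SD, n = 3), with a log2 fold change of 0.66 in ONC/Ctrl and 0.67 in TPEN/Ctrl (standard error 0.072, limma adjusted p = 0.00018 and 0.00025). Ehmt2, which places mono- and dimethyl marks on H3K9, fell by 0.18 in TPEN/ONC on the log2 scale (limma adjusted p = 0.022). The call of Ehmt2 was lost in 6 of 18 alternatives. Of these, 5 were the fits without any 1 of the ONC libraries, TPEN replicate 1 or TPEN replicate 3 (limma adjusted p = 0.054 to 0.085). The other 5 of 6 tested genes of that list passed no test in ONC/Ctrl. Of the HUSH complex and MORC genes, which silence retroelements, 0 of 5 were called by limma in any comparison, nor by voom. Over all genes tested, limma called 18.7% in ONC/Ctrl, 7.39% in TPEN/ONC and 13.4% in TPEN/Ctrl. Of these 5 genes, 1 had an unadjusted p under 0.05 (Fam208a in ONC/Ctrl, named after its values were seen).

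The partners of ATRX differed between ONC and Ctrl. Daxx, the H3.3 chaperone, was at 21.1 ± 0.943 RPKM in Ctrl, 28.0 ± 0.514 in ONC and 23.0 ± 1.16 in TPEN (SD, n = 3), a rise of 0.41 on the log2 scale in ONC/Ctrl (limma adjusted p = 0.00023) and a change of -0.29 in TPEN/ONC (limma adjusted p = 0.0061). Its direction in both comparisons was opposite to that of Atrx. The H3.3 genes themselves differed: H3f3a rose by 0.37 in ONC/Ctrl (limma adjusted p = 0.00069), while H3f3b changed by -0.14 in ONC/Ctrl (limma adjusted p = 0.011) and by 0.22 in TPEN/ONC (limma adjusted p = 0.0030). Exons of H3f3a overlap Gm17275 and H3f3aos, so its reads are uncertain. Chaf1a, of the chaperone that follows replication, rose by 0.36 in ONC/Ctrl (limma adjusted p = 0.0011) and overlaps Ubxn6. Of the 9 tested histone chaperone genes, 4 rose and 1 fell in ONC/Ctrl, and 1 rose and 2 fell in TPEN/ONC. Over all genes tested, 11.7% rose and 6.97% fell in ONC/Ctrl, and 3.24% rose and 4.14% fell in TPEN/ONC.

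H3K9 demethylases, which remove methyl groups from H3K9, fell or did not pass. Of 10 tested, 4 fell and 0 rose in ONC/Ctrl, beside 6.97% lower and 11.7% higher of all genes tested. Kdm3b was at -0.20, Kdm4c at -0.17, Kdm3a at -0.32 and Kdm7a at -0.23 on the log2 scale (limma adjusted p = 0.00096, 0.0021, 0.0084 and 0.028). The call of Kdm7a was lost in 7 of 18 alternatives. Of these, 4 were the fits without Ctrl replicate 1 or 2 or ONC replicate 1 or 2 (limma adjusted p = 0.081 to 0.097). In TPEN/ONC 0 of the 10 demethylases were called by limma, beside 7.39% of all genes tested. There 2 of the demethylases had an unadjusted p under 0.05 and 2 were called by voom.

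Among genes of DNA methylation readers and remodellers, Mbd3, a NuRD subunit, was at 49.3 ± 2.17 RPKM in Ctrl, 53.2 ± 1.08 in ONC and 45.9 ± 0.889 in TPEN (SD, n = 3). It fell by 0.21 on the log2 scale in TPEN/ONC (limma adjusted p = 0.0087), a call that held in all alternatives tried.

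In the list of deacetylases, SUMO enzymes and subunits of the NuRD remodelling complex, 2 of 17 genes rose and 2 fell in ONC/Ctrl. Of all genes tested, 11.7% rose and 6.97% fell there. Chd4, the NuRD remodeller, rose by 0.22 and Rbbp7 by 0.27, while Mta2 fell by 0.22 and Chd3 by 0.17 on the log2 scale (limma adjusted p = 0.00015, 0.00053, 0.0038 and 0.0093). Chd3 fell further in TPEN/ONC, by 0.24 (limma adjusted p = 0.0048), the only 1 of the 17 called there, beside 7.39% of all genes tested. Exons of Chd4, Rbbp7 and Chd3 overlap other listed genes. Kmt5c, which adds the H4K20 trimethyl mark downstream of H3K9 methylation, fell by 0.19 in ONC/Ctrl and by 0.21 in TPEN/Ctrl (limma adjusted p = 0.0076 and 0.0065). It was the 1 of 3 tested H4K20 methyltransferases to do so, where 6.97% of all genes tested fell in ONC/Ctrl and 5.01% in TPEN/Ctrl. Of 6 tested lamina tethers, Lmna rose by 0.68 in ONC/Ctrl (limma adjusted p = 0.039) at a mean of 0.474 RPKM in Ctrl, where 11.7% of all genes tested rose. The call of Lmna was lost in 9 of 17 alternatives. Among these were quantile normalization (0.12) and each fit without 1 of the Ctrl or ONC libraries (0.065 to 0.13). Of 5 tested Polycomb chromodomain genes, relatives of the HP1 genes, Cbx6 fell by 0.28 in ONC/Ctrl (limma adjusted p = 0.019), where 6.97% of all genes tested fell. The call of Cbx6 was lost without Ctrl replicate 1 (0.075) or ONC replicate 2 (0.063).

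**Figure D5:**
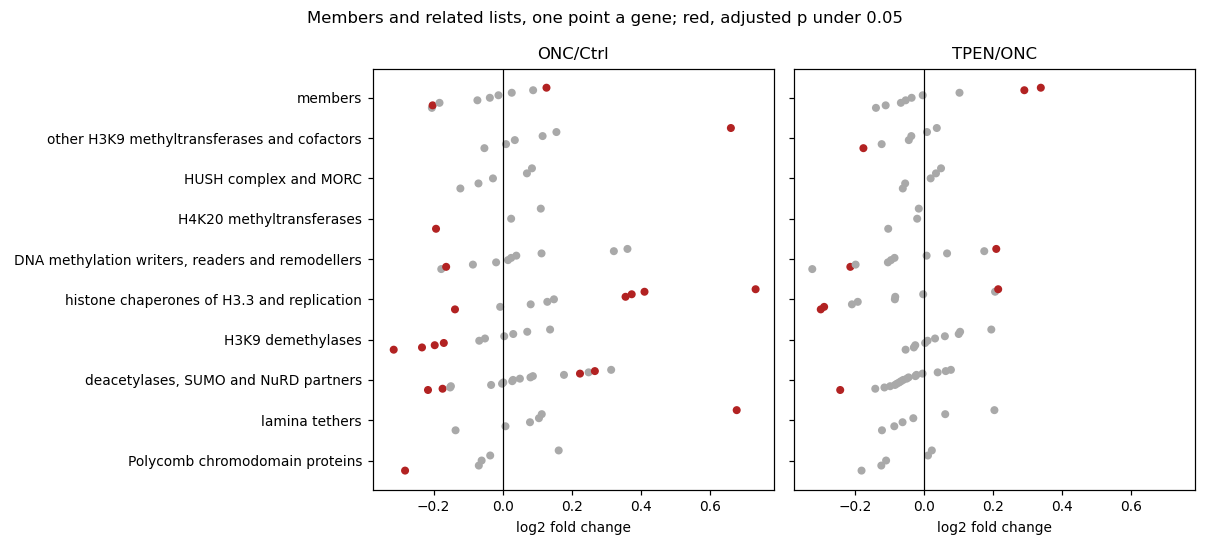
The log2 fold change (x axis) of each tested gene of the members and of 9 related lists (y axis) in ONC/Ctrl and TPEN/ONC, one point a gene, red where the limma adjusted p is under 0.05. Red points are few in TPEN/ONC (7 in the related lists), and the H3K9 demethylases called in ONC/Ctrl all lie below 0.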

How the data were processed

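RNA from the 9 libraries was sequenced by the authors with a stranded kit that adds molecular identifiers. The authors trimmed reads with Trimmomatic 0.36 (submitters' processing notes) and aligned them to GRCm38/mm10 with STAR. The counting program, annotation, collapsing of identifiers and use of strand are not given in the sources used here. The deposited values are RPKM per gene. The deposited table also holds p-values and log2 fold changes of the authors' own edgeR comparisons, which were not used. The RPKM times exon length fell on whole multiples of a step per library for 100% of values (within 0.01 reads), which gave read totals of 19946993 to 23109754. Floors cover counting error only, whereas the 95% intervals are those of limma and rest on the spread between libraries.

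As the deposited unit was RPKM, the main fit was made on log2 RPKM values, and voom on the recovered reads was an alternative. Groups were taken from the labels and compared in 1 fit of all 9 libraries with limma 3.58.1 (R 4.3.3) and its mean-variance trend. The 13566 genes whose mean reached 0.5 RPKM entered as log2(RPKM + 0.1), and Benjamini-Hochberg adjustment ran over those genes. The pseudocount makes fold changes of low genes smaller than their ratios of means. Levels and shares of paralogues were tested by exact permutation over 280 splits, with a between-group variance statistic that takes either direction. The script was tested on simulated data. There the fit called 0 of 50 genes raised 1.1-fold in ONC, 11 of 50 at 1.25-fold, 31 of 50 at 1.5-fold and 46 of 50 at 2-fold. Small changes were thus often missed in the simulation. There 13355 of 13555 genes were unchanged, whereas 18.7% of genes were called in ONC/Ctrl in the data. The adjustment over genes therefore differs, and the simulated rates need not hold for the real fit. Transcripts of GENCODE M21 were compared with blastn 2.17.0, 97.2% of listed genes had one, and promoters came from RefSeq. Text named the 10 members, the satellite-like genes, and from each related list at most 4 genes with the lowest adjusted p under 0.05 in ONC/Ctrl or TPEN/ONC, except for 1 that is not reported here. The members and lists were chosen with earlier results of these data known. Alternatives were quantile normalization, median-ratio scaling, a pseudocount of 1 RPKM, no filter, a filter of 1 RPKM, the 6 libraries compared, the replicate number as a block, voom on the recovered reads, shares of reads, and leaving out each library. The removal of GC and length trends by lowess was added after seeing the data.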

Additional observations from a re-analysis of the deposited data

How the results depend on the processing

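Over all alternatives, 424 of 486 log2 fold changes of members kept their direction and side of the threshold, 39 lost and 10 gained an adjusted p under 0.05, and 13 changed sign. In ONC/Ctrl (Atrx and Dnmt1, 2 called), Atrx was called in every alternative. It was the only 1 called with the 6 libraries compared, the replicate block or the GC and length trends removed. With quantile normalization Dnmt1 was lost while Suv39h2 and Cbx5 were called, with median-ratio scaling Dnmt1 was lost while Suv39h2 was called, and by voom on whole reads all 4 were called. In TPEN/ONC (Atrx and Cbx5, 2 called), only Atrx (1) was called with the replicate block. In TPEN/Ctrl (Atrx and Suv39h2, 2 called), only Suv39h2 (1) was called with quantile normalization, median-ratio scaling, the 6 libraries compared or the replicate block. With the trends removed Atrx was lost there while Suv39h2 (adjusted p = 0.030) and Cbx1 (0.043) were called. Without 1 library, the counts ranged from 1 to 2, from 1 to 2 and from 0 to 1 in these comparisons. The 7 genes of related lists called in TPEN/ONC became 4 with the replicate block, 12 by voom and 4 to 7 without 1 library. Without 1 library, 1 to 4 members differed in level between groups and 1 to 3 paralogue shares did, against 2 of each, with p adjusted over the tests run, and 1 share did with whole reads in place of RPKM. Dnmt1, which with Atrx made up the 2 levels, was lost in 6 of the 9 fits without 1 library (Ctrl 2, ONC 2, ONC 3 and each TPEN library, adjusted exact permutation p = 0.071 to 0.125). The causes were not tested. The values that changed sign were small and not called. They were Suv39h1 in TPEN/ONC (0.0053 after median-ratio scaling, 0.012 with the trends removed), Cbx3 in ONC/Ctrl (0.035 with the trends removed) and Setdb1 in ONC/Ctrl (-0.015 after quantile normalization). Without 1 library, Suv39h1 ranged from -0.097 to 0.0077 in ONC/Ctrl, -0.038 to 0.048 in TPEN/ONC and -0.10 to 0.0043 in TPEN/Ctrl, Suv39h2 from -0.11 to 0.022 in TPEN/ONC, Cbx3 from -0.069 to 0.036 in ONC/Ctrl and Trim28 from -0.098 to 0.021 in TPEN/Ctrl. For Uhrf1, a pseudocount of 1 RPKM gave 0.15 in ONC/Ctrl and 0.14 in TPEN/Ctrl.

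Libraries with the same replicate number did not deviate together (correlations of -0.062 to 0.027 across genes, and -0.037 to 0.051 for other numbers). The numbers thus gave no sign of a pairing. A pairing with a small effect, or one that does not follow the numbers, cannot be seen this way. With the replicate block, the adjusted p of Cbx5 in TPEN/ONC was 0.052, that of Dnmt1 in ONC/Ctrl 0.094 and that of Atrx in TPEN/Ctrl 0.097. The depth limits Uhrf1 most, with 7 to 28 reads in a library.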
